A study of Mus musculus with 29 samples.

Results

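Brown adipose tissue (BAT) of calorie-restricted mice that also ran on a treadmill (CREX, 4 libraries) was compared with BAT of mice under restriction alone (CR, 4 libraries), which makes 8 of the 29 RNA sequencing libraries of the study. The members are the count columns that the sample names place in these groups, over all genes. All animals were male wild-type C57BL/6J mice, 8 weeks old at the start and followed for 8 weeks. Food of the CR and CREX mice was cut by 10% per week until it reached 70% of the freely fed intake. Restriction is thus common to both groups, which differ by design in training. Mice were also fasted before exercise, by the paper's methods, which do not say whether sedentary mice were fasted alongside. CREX mice ran at 12 m/min for 1 h on 5 days per week, and tissue was taken 24 h after the last run and a 6 h fast. The other BAT libraries came from freely fed mice, 3 sedentary (control) and 4 trained (EX), and 6 libraries of gastrocnemius skeletal muscle (SkM), 3 CR and 3 CREX, served for a comparison between tissues. BAT was sampled as whole tissue, so fewer cells of a type and less RNA per cell of that type cannot be told apart.

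Library totals ran from 21154276 to 24919377 counts over the 8 libraries, with a count for 17413 to 18162 genes, and 3 counts corresponded to 0.12 to 0.142 CPM, the usual measure of counts relative to the library total. Levels below are CPM on library sizes scaled by the trimmed mean of M values (TMM), which do not correct for gene length, so levels are compared between libraries and not between genes. A differentially expressed gene (DEG) had a Benjamini-Hochberg adjusted p below 0.05 in edgeR's quasi-likelihood test over 13112 genes and a fold change above 1.5. The brown adipocyte genes were present in every library. Ucp1, the uncoupling protein that releases heat, stood at 2063, 1887, 2583 and 1871 CPM in CR and at 1373, 2424, 1433 and 1924 CPM in CREX, and the ranges overlapped. Cidea, a lipid droplet protein typical of brown fat, averaged 1531 ± 119 CPM in CR and 1362 ± 112 CPM in CREX (SD, n = 4 each). Skeletal muscle genes were also present and varied widely between libraries. The 16 markers of all muscle fibres summed to 56.5, 71.7, 1210 and 595 CPM in CR replicates 1 to 4 and to 839, 1190, 5547 and 1626 CPM in CREX, against 94450 to 136670 CPM in the 3 CR libraries of SkM. CR replicates 1, 2 and 4 thus carried less of these transcripts than every CREX library, and CREX replicate 3 carried the most.

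BAT burns fatty acids and glucose in mitochondria that are rich in respiratory complexes, and it also takes up amino acids and secretes proteins. Serine is made from the glycolytic intermediate 3-phosphoglycerate in consecutive steps, by the dehydrogenase Phgdh, the aminotransferase Psat1 and the phosphatase Psph. Serine feeds glycine, one-carbon units and phospholipids, and the aminotransferase step also converts glutamate to 2-oxoglutarate.

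The bases just before the start sites of these 3 genes are shown because Psat1 was the DEG of this comparison and the other enzymes act on either side of it in the same pathway. Each line gives 250 bases from RefSeq on mouse build GRCm38.p6, read on the strand of the gene (minus for each), and capitals mark CCAAT or, on the opposite strand, its complement ATTGG. The windows are chr19:15925060-15925309 for Psat1, chr3:98339970-98340219 for Phgdh and chr5:129787254-129787503 for Psph. The Psph window precedes the start site in the RefSeq promoter table, which lies inside the gene's full interval of chr5:129765558-129787443, so most of that window, both matches included, falls within the gene as annotated with its outermost start.
Psat1: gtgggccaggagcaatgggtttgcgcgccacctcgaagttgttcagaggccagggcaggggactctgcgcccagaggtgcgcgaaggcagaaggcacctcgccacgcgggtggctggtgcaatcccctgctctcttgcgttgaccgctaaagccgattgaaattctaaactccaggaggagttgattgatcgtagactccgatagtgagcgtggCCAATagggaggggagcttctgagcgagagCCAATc
Phgdh: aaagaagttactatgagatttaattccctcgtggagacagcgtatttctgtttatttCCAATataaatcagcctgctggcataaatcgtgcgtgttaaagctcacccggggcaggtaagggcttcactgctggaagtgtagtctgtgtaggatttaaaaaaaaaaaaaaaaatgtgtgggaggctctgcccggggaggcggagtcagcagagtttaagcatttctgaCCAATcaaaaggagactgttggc
Psph: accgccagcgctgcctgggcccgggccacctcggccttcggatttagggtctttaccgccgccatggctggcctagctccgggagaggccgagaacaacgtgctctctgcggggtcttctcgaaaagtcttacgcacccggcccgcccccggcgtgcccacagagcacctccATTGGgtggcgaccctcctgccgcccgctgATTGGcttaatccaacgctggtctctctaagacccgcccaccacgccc
Psat1 held CCAAT 36 and 6 bases before its start, Phgdh 193 and 23 bases before, and Psph held it on the opposite strand 78 and 48 bases before. Among 32851 mouse promoter windows of the same length, 33.8% held CCAAT on either strand and 10.1% held it 2 or more times. The motif TGATGNAA, searched on both strands as a form of the element bound by the amino acid stress factor ATF4, occurred in none of the 3 windows and in 3.45% of all windows. These matches describe letters in a window and say nothing of binding.

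Psat1 rose with training in restricted mice and was the DEG of the comparison, 1 of 13112 genes (0.00763%), with none called lower. Its level was 2.82, 2.37, 2.72 and 3.09 CPM in CR, from 65, 50, 66 and 72 counts. In CREX it was 5.83, 5.63, 6.28 and 6.87 CPM, from 146, 127, 152 and 174 counts. The groups did not overlap, and the lowest CREX library lay well above the highest CR library. The log2 fold change was 1.16 ± 0.13 (SE), a 2.24-fold difference, with an adjusted p of 0.0343 in edgeR's quasi-likelihood test with Benjamini-Hochberg adjustment. DESeq2 on the same libraries gave an adjusted p of 2.82e-08. In freely fed mice Psat1 stood at 2.36, 2.94 and 2.31 CPM in control and at 2.40, 3.29, 2.96 and 2.80 CPM in EX, ranges within which CR also fell. The gene lies at chr19:15905123-15925059 in RefSeq on GRCm38.p6.

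The size of the Psat1 difference held under every alternative tried, with a log2 fold change between 1.06 and 1.22 over 20 settings, whereas its call did not. The adjusted p was above 0.05 in 10 of the 20, among them 7 of the 8 in which 1 library was left out, where it reached 0.254. With the muscle score of each library as a covariate the log2 fold change was 1.06 and the adjusted p 0.833 in edgeR's test. SkM itself held 1.42 ± 0.641 CPM in CR and 1.16 ± 0.496 CPM in CREX (SD, n = 3 each), below every BAT library. CR replicate 3 and CREX replicate 2, only 1 library of each group, had the same muscle score, 5.58, and Psat1 levels of 2.72 and 5.63 CPM. The part of muscle transcripts in the Psat1 difference was not tested.

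**Figure D1:**
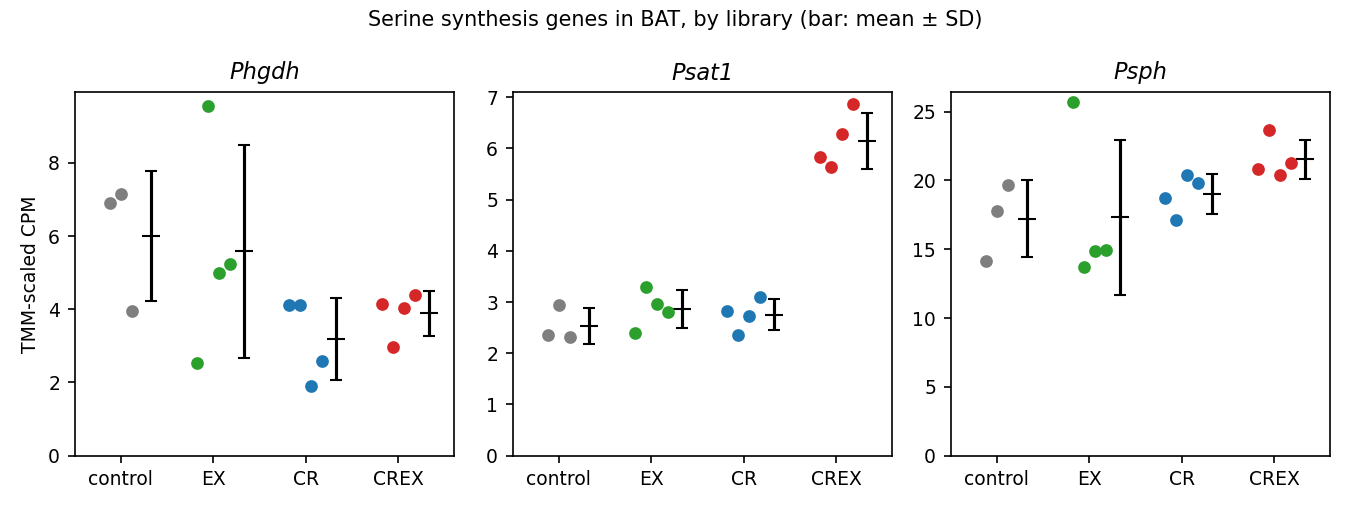
TMM-scaled CPM of Phgdh, Psat1 and Psph (y axis, from 0) in each BAT library of the control, EX, CR and CREX groups (x axis). Points are libraries and bars give the mean ± SD; the 4 CREX points of Psat1, at 5.63 to 6.87 CPM, lie above all others, whereas those of Phgdh and Psph fall within the range of the freely fed groups.

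The neighbouring enzymes did not pass the test. Phgdh stood at 4.12, 4.12, 1.90 and 2.58 CPM in CR and at 4.15, 2.97, 4.05 and 4.38 CPM in CREX. Its groups overlapped, with a log2 difference of 0.30 ± 0.25 (SE) and an unadjusted p of 0.254 in the edgeR model. With the muscle score as a covariate the Phgdh difference was 0.86, with an unadjusted p of 0.0119 in edgeR. Against CR replicates 3 and 4 alone it was 0.805, with an unadjusted p of 0.00757 in edgeR, so the Phgdh result depended on the fit. Psph, the last enzyme, was at 18.8, 17.1, 20.4 and 19.8 CPM in CR and at 20.8, 23.6, 20.4 and 21.2 CPM in CREX, a log2 difference of 0.18 ± 0.08 (SE). The lowest Psph level in CREX met the highest in CR, and the edgeR adjusted p was 0.653. In the same 2 alternative fits its log2 difference was 0.111 and 0.103. Shmt1, the cytosolic enzyme that interconverts serine and glycine, was lower in all 4 CREX libraries, at 22.7 to 26.3 CPM against 26.9 to 33.7 CPM in CR, with an edgeR adjusted p of 0.473. Its mitochondrial counterpart Shmt2 averaged 12.1 ± 0.74 CPM in CREX and 12.7 ± 1.42 CPM in CR. Gldc, a part of the glycine cleavage system, lay between 0.331 and 0.688 CPM in CR and between 0.576 and 1.16 CPM in CREX.

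Across the 25 measured genes of serine synthesis and one-carbon metabolism, 3 were higher and 1 lower in CREX at an unadjusted p below 0.05, against 3.72% and 3.91% of all genes tested (7.63% in either direction), and the list median was −0.002 on the log2 scale. Psat1 alone among them was a DEG. The ATF4 and amino acid stress list, which holds several genes known to move together with Psat1, had 1 higher and 4 lower of 27 measured members and a median log2 difference of −0.06. None of its members passed in either direction with the muscle score as a covariate, and 0 higher and 1 lower did against CR replicates 3 and 4 alone. Chac1, which degrades glutathione, was the higher one, at 0.738, 0.852, 1.61 and 0.817 CPM in CR and 2.0, 1.82, 7.60 and 3.24 CPM in CREX. Its groups did not overlap, and CREX replicate 3 lay far above the rest. The Chac1 log2 difference of 1.86 ± 0.52 (SE) was 0.69 with the muscle score as a covariate, with an unadjusted p of 0.173 in edgeR. SkM held far more Chac1 than BAT, at 92.3 ± 26.4 CPM in CR and 114 ± 62.9 CPM in CREX (SD). Atf5, a stress-induced transcription factor, averaged 78.6 ± 11.4 CPM in CR and 59.8 ± 5.27 CPM in CREX, and Sars, the cytosolic seryl-tRNA synthetase, 56.2 ± 3.17 and 49.4 ± 1.35 CPM. Asns, an ATF4 target that makes asparagine and was chosen after its values were seen, was at 67.5 to 71.3 CPM in CR and 64.9 to 74.7 CPM in CREX.

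Among other amino acid enzymes, 1 aminotransferase was higher in CREX and several enzymes of breakdown were lower at the unadjusted threshold. Gpt2, the mitochondrial alanine aminotransferase, was at 11.9, 8.33, 15.2 and 10.8 CPM in CR and at 16.8, 16.7, 22.8 and 20.5 CPM in CREX. The groups did not overlap, the log2 difference was 0.73 ± 0.17 (SE), and the adjusted p was 0.386 in edgeR and 0.0165 in DESeq2. In the fit with the muscle score the Gpt2 difference was 0.40, with an unadjusted p of 0.0522 in edgeR. SkM held far more Gpt2 than BAT, at 311 ± 15.9 CPM in CR and 408 ± 108 CPM in CREX (SD). The part of muscle transcripts in the Gpt2 difference was not tested. Of the 17 measured enzymes of glutamine, aspartate, alanine and proline metabolism, Gpt2 was the single one higher at an unadjusted p below 0.05, and 3 were lower. These shares were 5.88% and 17.6%, against 3.72% higher and 3.91% lower of all genes tested. In the fit with the muscle score 0 were higher and 2 lower, against 1.94% and 1.32% of all genes there. Prodh, which opens proline breakdown, lay at 41.1 to 45 CPM in CR and 33.3 to 38.0 CPM in CREX, without overlap. Aldh4a1, the next enzyme of that route, averaged 125 ± 2.49 and 111 ± 5.11 CPM. Of 22 measured genes of branched-chain amino acid breakdown, 20 had a lower fitted level, against 49.9% of all genes, with a list median of −0.10. At the unadjusted threshold 3 passed (13.6%), all lower, against 3.91% of all genes. With the muscle score as a covariate 1 did, against 1.32% of all genes lower in that fit. Bcat2, the mitochondrial branched-chain aminotransferase, was at 94.7 to 110 CPM in CR and 80.1 to 90.3 CPM in CREX, with no overlap and an edgeR adjusted p of 0.473.

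Slc7a8, a transporter of large neutral amino acids, was lower in CREX. It stood at 8.20, 9.84, 8.12 and 6.06 CPM in CR and at 4.83, 3.37, 4.71 and 4.90 CPM in CREX. The groups were separate, with a log2 difference of −0.85 ± 0.17 (SE) and adjusted p values of 0.254 in edgeR and 0.00565 in DESeq2. Control and EX averaged 3.06 ± 0.507 and 4.02 ± 1.99 CPM (SD, n = 3 and 4), nearer to CREX than to CR.

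Several secreted and receptor genes stood well above their CR level in CREX without passing edgeR's adjusted threshold, although DESeq2 called them. Trf, the iron carrier transferrin, was at 101, 76.4, 101 and 107 CPM in CR and at 235, 135, 200 and 235 CPM in CREX. Every CREX library lay above every CR library, with CREX replicate 2 the lowest of its group. The log2 difference was 1.06 ± 0.18 (SE), with adjusted p values of 0.254 in edgeR and 3.31e-06 in DESeq2. Serpina3n, a secreted serine protease inhibitor of the acute phase, stood at 4.21, 5.20, 4.04 and 5.03 CPM in CR and at 8.58, 7.89, 9.08 and 11.8 CPM in CREX. These groups were separate as well, with a log2 difference of 1.02 ± 0.15 (SE) and adjusted p values of 0.185 and 8.26e-06. Serpina3n belongs to a family of near-identical copies, so its counts depend on how shared reads were divided. Hcar2, the receptor for the ketone body beta-hydroxybutyrate and niacin, was at 3.65, 4.83, 5.40 and 5.29 CPM in CR and at 12.4, 7.49, 11.3 and 11.4 CPM in CREX. Its groups did not overlap, and CREX replicate 2 was again the lowest of its group. The log2 difference was 1.15 ± 0.17 (SE), with adjusted p values of 0.185 in edgeR and 7.2e-06 in DESeq2.

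DESeq2, which the study's own processing also used, called 30 of 13107 genes as DEGs (0.229%), 25 higher (0.191%) and 5 lower (0.0381%) in CREX, on the libraries where edgeR called 1. Genes with a level over 10-fold higher in SkM than in these BAT libraries made up 4 of the 25 higher calls and 0 of the 5 lower ones. At an unadjusted p below 0.05 with the fold minimum, 104 of the 212 higher genes (49.1%) were of this kind, against 444 of all 13112 genes tested (3.39%) and 0 of the 47 lower genes. The part of muscle transcripts in these calls was not tested. Among genes higher in CREX with no overlap between groups, 274 genes or 2.09% of those tested, 40 were of this kind.

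Further genes with separate groups and small p values on the higher side encode an enzyme, signals and surface proteins. Cyp2e1, a cytochrome P450, averaged 162 ± 16.2 CPM in CR and 270 ± 63.1 CPM in CREX. Fgf10, a growth factor of adipocyte precursors, lay at 0.773 to 0.989 CPM in CR and 1.44 to 2.33 CPM in CREX, with 1.74 ± 0.178 CPM in control and 1.86 ± 0.412 CPM as the CREX mean. For Fgf10, then, CR was the group that stood apart from the others. Clmp, an adhesion molecule described in adipocytes, was at 1.56 to 2.43 CPM in CR and 2.79 to 5.25 CPM in CREX. Unc5a, a netrin receptor, was at 2.93 to 4.95 CPM and 6.61 to 7.80 CPM. Retn, the adipokine resistin, was at 42.6 to 62.5 CPM in CR and 66.2 to 88.7 CPM in CREX, with an edgeR adjusted p of 0.322. The log2 differences of these genes lay between 0.65 and 1.11, and none passed edgeR's adjusted threshold.

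**Figure D2:**
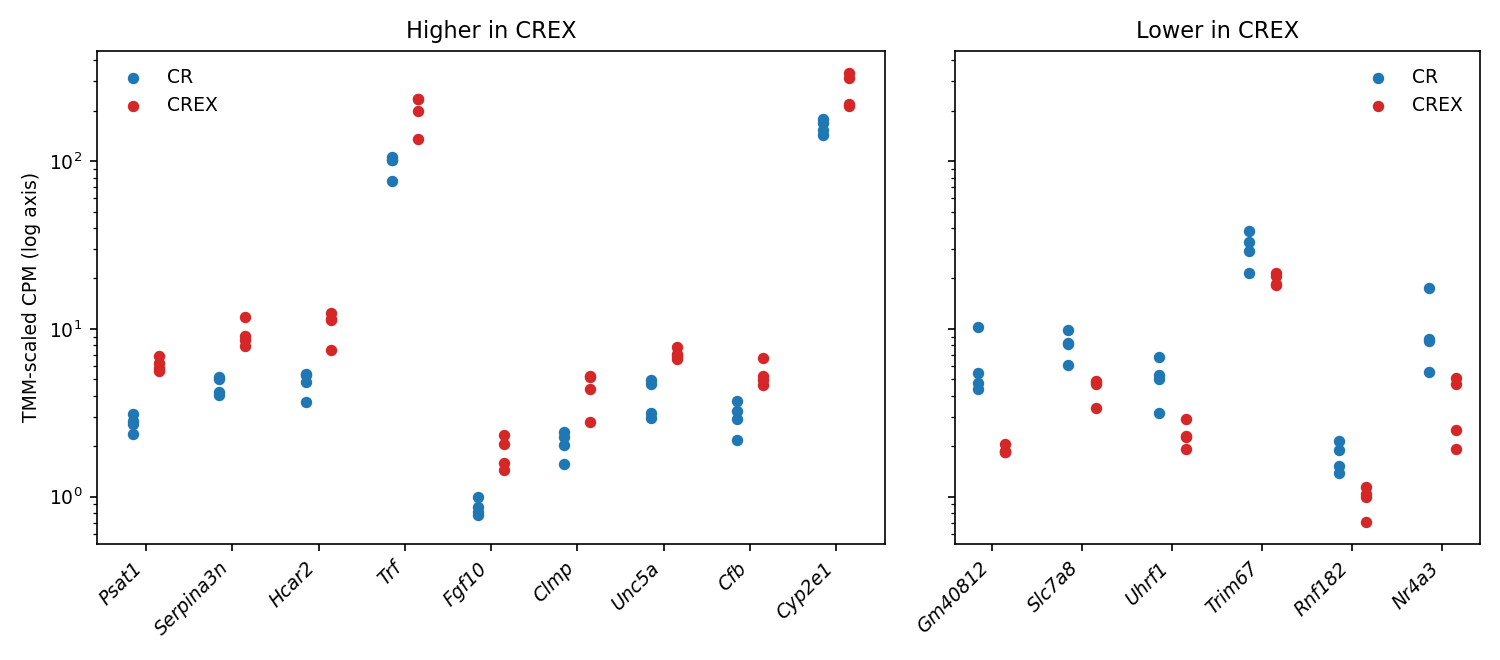
TMM-scaled CPM (log axis) of 9 genes higher and 6 genes lower in CREX, each point a library of CR or CREX. In each gene shown the CR and CREX points do not overlap; Psat1 passed edgeR's adjusted threshold and the others did not.

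On the lower side, the uncharacterised transcript Gm40812 had the smallest p value among the lower genes described. It stood at 10.3, 4.73, 5.44 and 4.38 CPM in CR and at 1.84, 1.86, 1.86 and 2.05 CPM in CREX. The CREX libraries were close to each other and below all CR libraries, the log2 difference was −1.70 ± 0.27 (SE), and the adjusted p was 0.186 in edgeR and 7.2e-06 in DESeq2. Control and EX averaged 8.96 ± 4.78 and 7.24 ± 2.62 CPM, so CREX was the low group for this transcript. Uhrf1, which guides maintenance of DNA methylation, lay at 3.17 to 6.77 CPM in CR and 1.93 to 2.89 CPM in CREX, a log2 difference of −1.10. Control and EX averaged 1.71 ± 0.467 and 1.80 ± 0.165 CPM, so here CR was the high group. Trim67, a TRIM family protein, was at 21.6 to 38.5 CPM in CR and 18.4 to 21.5 CPM in CREX, with 1 CR library just above the CREX range. Rnf182, a ubiquitin ligase, was at 1.39 to 2.15 CPM and 0.709 to 1.14 CPM. Nr4a3, an early-response nuclear receptor, was at 8.51, 5.53, 8.69 and 17.5 CPM in CR and at 4.67, 2.48, 5.12 and 1.93 CPM in CREX, without overlap, a log2 difference of −1.50 ± 0.44 (SE) and an edgeR adjusted p of 0.522.

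Complement and acute phase genes were mostly higher in CREX, in a list put together after these values were seen. Of its 18 measured members 17 had a higher fitted level and 8 passed the unadjusted threshold, all higher, against 3.72% of all genes, and the list median was 0.42 on the log2 scale against 0.00 for all genes. With 1 library left out at a time, 6 to 12 members passed. Cfb, which forms the alternative pathway convertase, stood at 2.17, 2.89, 3.71 and 3.22 CPM in CR and at 4.99, 5.23, 4.62 and 6.71 CPM in CREX. The groups were separate, with a log2 difference of 0.85 ± 0.19 (SE) and adjusted p values of 0.322 in edgeR and 0.0142 in DESeq2. C4b, of the classical pathway and with a near-identical copy in C4a, was at 5.56, 3.93, 5.81 and 6.19 CPM in CR and at 11.1, 7.23, 7.39 and 9.59 CPM in CREX. Lgals3bp, a secreted glycoprotein of innate immunity, was at 37.5 to 39.8 CPM in CR and 44.0 to 53.5 CPM in CREX. Control levels lay close to CREX or above for Cfb, at 5.16 ± 0.80 CPM, and for C4b, at 12.5 ± 4.80 CPM. Cfd, adipsin, which cleaves the factor B protein, averaged 575 ± 80.7 CPM in CR and 780 ± 108 CPM in CREX with overlapping ranges. Of the 11 measured macrophage markers 11 had a higher fitted level in CREX, 1 (Itgam) passed the unadjusted threshold, and the median was 0.30. Their summed level was 48.6 to 78.6 CPM in CR and 50.9 to 103 CPM in CREX. With the muscle score as a covariate 10 of the 11 passed, against 1.94% of all genes higher in that fit, so this count depended on the covariate. Of 12 T and B lymphocyte markers 11 were in the count table, none of them reached enough counts to be tested, and none exceeded 7 counts in a library.

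Receptors of adipocytes that couple to inhibitory G proteins, through which metabolites restrain lipolysis, included Hcar2 and were also chosen as a list after their values were seen. The list also held Gnai1 and Gnai2, which encode alpha subunits of inhibitory G proteins and not receptors. Of the 9 list members measured, 4 were higher at an unadjusted p below 0.05 and none lower, against 3.72% and 3.91% of all genes, with a median log2 difference of 0.40. Ffar2, a receptor for short-chain fatty acids, was at 0.304, 0.331, 0.577 and 0.258 CPM in CR and at 0.998, 1.51, 0.826 and 2.01 CPM in CREX, from 6 to 14 and 20 to 51 counts. Its groups did not overlap, and control stood at 1.79 ± 0.705 CPM, above CR as well. Hcar1, the lactate receptor, was at 10.9, 13.7, 30.5 and 23.2 CPM in CR and at 40.4, 27.3, 36.4 and 49.5 CPM in CREX. CR replicate 3 lay above CREX replicate 2 for Hcar1, and its log2 difference of 0.97 was 0.42 with the muscle score as a covariate. Ptger3, the prostaglandin E receptor EP3, averaged 15.5 ± 2.52 and 20.5 ± 3.30 CPM with overlap. With the covariate 2 of the 9 list members passed.

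Nuclear genes of the respiratory chain were mostly lower in CREX by a small margin, although none passed edgeR's adjusted threshold. Among 38 measured members of the respiratory list, 35 had a lower fitted level, against 49.9% of all genes, and 21 were lower and 0 higher at an unadjusted p below 0.05. In 20 of them no CREX library reached the CR range, against 3.06% of genes tested, and DESeq2 gave 6 an adjusted p below 0.05, all lower, against 0.252% of genes lower and 0.244% higher in that fit. The median log2 difference was −0.15, a level 9.6% lower in CREX. The mean log2(CPM + 1) of the list was 9.19, 9.29, 9.20 and 9.19 in CR and 9.08, 9.11, 9.06 and 9.09 in CREX. It was 9.10, 9.07 and 9.12 in control and 9.12, 8.95, 8.93 and 9.16 in EX, so that CR lay above the freely fed groups and CREX within their range. Without CR replicate 2, the highest library, 19 members passed and the median was −0.12.

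The margin was spread over the complexes, for which full subunit lists were made after these values were seen. In complex I, which oxidises NADH, 20 of 36 measured nuclear subunits were lower at an unadjusted p below 0.05 and none higher, with a median of −0.16. Of all genes tested, 3.91% were lower and 3.72% higher at that threshold. Complex II had 2 of 4 lower and complex III with cytochrome c 5 of 10. Complex IV, which reduces oxygen, had 13 of 17 lower with a median of −0.22, and complex V, the ATP synthase, had 7 lower and 2 higher of 16. The 13 protein-coding genes of the mitochondrial genome, which supply core subunits of complexes I, III, IV and V, had 0 lower and 1 higher, with a median of 0.01. In DESeq2 5 subunits each of complexes I and IV and 2 of complex V had an adjusted p below 0.05, all lower.

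Usmg5, a small subunit of the ATP synthase chosen after its values were seen, showed the separation most clearly. It stood at 326, 350, 310 and 333 CPM in CR and at 259, 262, 263 and 259 CPM in CREX. The CREX libraries were nearly equal and below all CR libraries, with a log2 difference of −0.34 ± 0.06 (SE) and adjusted p values of 0.209 in edgeR and 8.26e-06 in DESeq2. Cox7c, of complex IV, was at 640, 658, 590 and 627 CPM in CR and at 524, 545, 510 and 505 CPM in CREX. Cox5a, of the same complex, was at 696 to 741 CPM in CR and 568 to 632 CPM in CREX, and Cox5b was at 454 to 530 and 389 to 420 CPM. Each of these was lower in 4 of 4 CREX libraries than in any CR library. Ndufb3 of complex I was at 195 to 216 and 170 to 181 CPM, and Ndufa6, chosen after its values were seen, at 295 to 356 and 242 to 259 CPM. Atp5h, of the ATP synthase stalk, averaged 452 ± 9.78 CPM in CR and 382 ± 20.5 CPM in CREX. Sdha, the flavoprotein of complex II, averaged 1713 ± 69.1 and 1567 ± 29.9 CPM, a log2 difference of −0.13. Atp5b, the catalytic beta subunit, averaged 4906 ± 349 and 4522 ± 65.7 CPM with overlap. COX1, encoded in the mitochondrial genome, was at 130799, 111025, 115586 and 116998 CPM in CR and at 134070, 129484, 134456 and 120349 CPM in CREX, so its fitted level went the other way, with a log2 difference of 0.13 and an edgeR adjusted p of 0.66. Nuclear copies of mitochondrial genes and pseudogenes of several subunits share reads with them.

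**Figure D3:**
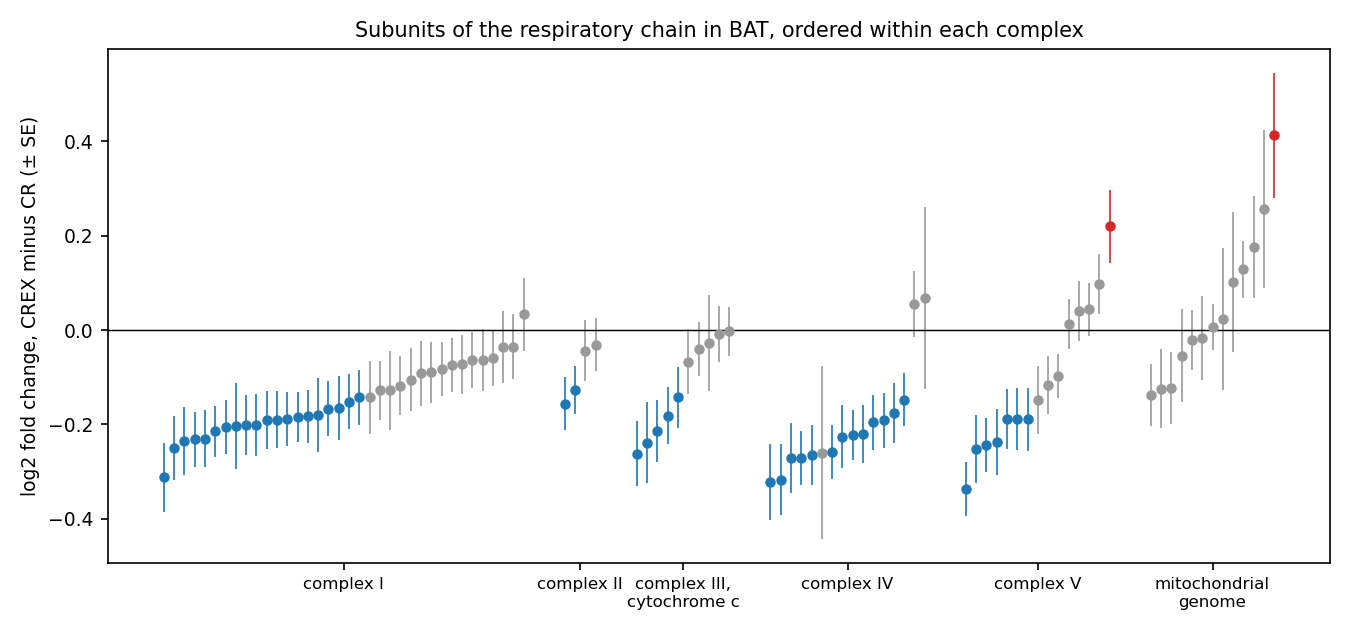
Log2 fold change of CREX minus CR (y axis, bars ± SE) for each measured subunit of respiratory complexes I to V and each protein-coding gene of the mitochondrial genome, ordered by value within a complex (x axis). Blue marks an unadjusted p below 0.05 with a lower level in CREX, red the same with a higher level and grey the rest; Cox6a2 and Atp5g1, above 0.7, are left out, and most nuclear subunits lie below 0 whereas those of the mitochondrial genome lie on both sides.

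Transcript length moved with this difference. Respiratory transcripts are short, with a median length of 732 bases over 83 subunits against 2666 bases over all genes tested. Among genes outside the respiratory and ribosomal lists, the median log2 difference was −0.15 for the 194 genes of up to 600 bases, of which 149 lay below 0, and it was 0.03 for the 3090 genes over 4000 bases. The respiratory subunits of up to 600 bases had a median of −0.20 (n = 29), those over 600 and up to 1000 bases −0.16 (n = 26), those up to 1500 bases −0.10 (n = 11), those up to 2500 bases −0.14 (n = 12) and those up to 4000 bases −0.10 (n = 5), which is no steady trend beyond 1000 bases. In each length class that held subunits, their median lay below that of the other genes. The median deviation of 159 short genes outside these lists from their mean over the 8 libraries was 0.02, 0.15, 0.01 and 0.07 in CR and −0.02, −0.08, −0.08 and −0.07 in CREX, on the log2(CPM + 1) scale. CR replicate 2 had the most of the short transcripts and also the highest respiratory level. The part of transcript length in the respiratory result was not tested.

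**Figure D4:**
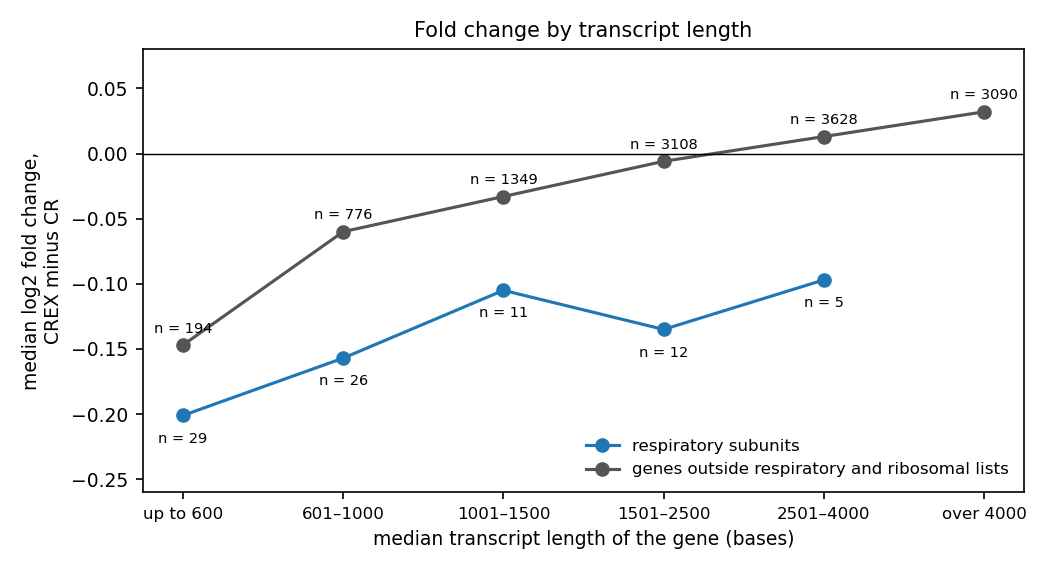
Median log2 fold change of CREX minus CR (y axis) in classes of transcript length in bases (x axis), for respiratory subunits and for genes outside the respiratory and ribosomal lists, with the number of genes at each point. Short genes have negative medians in both sets, and the subunits lie below the other genes in each class.

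The muscle signal also differed between the groups, with CR replicates 1, 2 and 4 below all CREX libraries. The 16 markers of all fibres kept a median log2 difference of 1.36 against CR replicates 3 and 4 alone, so muscle signal was not matched there. Against CR replicates 3 and 4 alone, 13 of the 38 members of the respiratory list were lower at an unadjusted p below 0.05, and none higher, against 2.08% and 2.1% of genes, with a median of −0.10. With the muscle score as a covariate 6 were lower, against 1.32% of genes, with a median of −0.12. Cytosolic ribosomal proteins, which are also short, had 13 of 81 lower (3.91% of all genes), 70 with a lower fitted level (49.9% of all genes) and a median of −0.11. Their median was −0.003 against CR replicates 3 and 4 and 0.02 with the covariate, and without CR replicate 2 the number lower was 2. Mitochondrial ribosomal proteins had 13 of 77 lower, with a median of −0.08, and 1 lower with the covariate.

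Genes of fuel oxidation upstream of the respiratory chain were lower by less. Of 20 measured genes of the tricarboxylic acid cycle, 18 had a lower fitted level (49.9% of all genes) and 5 were lower at an unadjusted p below 0.05 (3.91%), with CREX wholly below CR in 5 (3.06%) and a list median of −0.08. Fh1, fumarase, was at 431 to 475 CPM in CR and 393 to 411 CPM in CREX, and Mdh2, mitochondrial malate dehydrogenase, at 749 to 796 and 674 to 733 CPM. With the muscle score as a covariate 0 of the 20 passed, with a median of −0.09, and against CR replicates 3 and 4 alone 1 passed. Fatty acid oxidation had 3 of 29 lower and none higher, with a median of −0.04 and no overlap in 5. The lower ones were Etfb and Acaa2, which DESeq2 gave adjusted p values of 0.0126 and 0.0158, and Eci1. Etfb, a subunit of the flavoprotein that passes electrons from fatty acid oxidation to the respiratory chain, averaged 632 ± 28 CPM in CREX and 746 ± 23.9 CPM in CR, and Acaa2, the last enzyme of mitochondrial beta-oxidation, 1246 ± 32.0 and 1436 ± 44.7 CPM.

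No gene of glucose handling passed edgeR's adjusted threshold. Slc2a4, the insulin-responsive glucose transporter, was at 400 to 470 CPM in CR and 336 to 409 CPM in CREX with overlap. Pdk2, which inhibits pyruvate dehydrogenase, was at 346 to 385 and 312 to 336 CPM. Tkt, transketolase, averaged 4172 ± 336 and 3716 ± 148 CPM. Of 29 measured genes of glycolysis, the pentose phosphate route and lactate, 2 were higher and 4 lower at an unadjusted p below 0.05, with a median of −0.06. These shares were 6.9% and 13.8%, against 3.72% higher and 3.91% lower of all genes tested. With the muscle score as a covariate 0 were higher and 2 lower. Fatty acid and triglyceride synthesis had 0 higher and 1 lower of 26 (3.85%, near the share of all genes), and sterol synthesis and uptake 0 of 22 in either direction.

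Of 26 measured brown adipocyte identity genes, 20 had a lower fitted level (49.9% of all genes), and 0 were higher and 3 lower at an unadjusted p below 0.05 (11.5%, against 3.91% of all genes), with a median of −0.13. None passed with the muscle score as a covariate, where the median was −0.16. Cox8b was at 745, 781, 679 and 684 CPM in CR and at 598, 620, 515 and 584 CPM in CREX, and Cox7a1 at 230 to 260 and 198 to 225 CPM. Both encode complex IV subunits and had separate groups. Slc27a2, an acyl-CoA synthetase, averaged 220 ± 22.0 and 179 ± 26.4 CPM with overlap. The log2 difference of Ucp1 was −0.23 ± 0.20 (SE), with an edgeR adjusted p of 0.84. Of 16 general adipocyte genes 2 were higher (12.5%, against 3.72% of all genes), Retn and Cfd. Fabp4, the fatty acid binding protein, was the 1 lower, at 8078 ± 591 CPM in CR and 7157 ± 452 CPM in CREX. Adipoq, adiponectin, averaged 756 ± 38.5 and 717 ± 23.9 CPM, an adjusted p of 0.813 in edgeR. Among 21 lipolysis and lipid droplet genes 2 were higher and 2 lower. Plin3, a droplet coat protein, was at 59.5 to 68.9 CPM in CR and 49.0 to 52.0 CPM in CREX without overlap, with adjusted p values of 0.254 in edgeR and 0.00151 in DESeq2. Fabp5, a fatty acid binding protein, averaged 78.8 ± 10.2 and 103 ± 12.3 CPM, and Abhd5, the co-activator of adipose triglyceride lipase, 112 ± 2.81 and 133 ± 13.6 CPM.

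Of 24 measured batokines and adipokines, 4 were higher and 2 lower at an unadjusted p below 0.05, against 3.72% and 3.91% of all genes, with a median of 0.10, and with the muscle score as a covariate 1 was higher and 1 lower. Besides Retn and Cfd, the higher ones were Cxcl14, a chemokine released by brown fat, at 3.26 to 4.08 CPM in CR and 5.07 to 5.90 CPM in CREX, and Igf1, insulin-like growth factor 1, at 8.77 to 9.89 and 9.84 to 17.7 CPM. Apoe, the lipoprotein component, was lower, at 319 to 359 CPM in CR and 222 to 307 CPM in CREX, without overlap and with an edgeR adjusted p of 0.385. Genes of the extracellular matrix had 5 of 37 higher and 0 lower, against 3.72% and 3.91% of all genes, with a median of 0.15. In the fit with the muscle score 11 were higher (1.94% of all genes there), with a median of 0.24, and against CR replicates 3 and 4 alone 9 were (2.1% of all genes). Lox, which cross-links collagen, averaged 10.7 ± 1.01 and 13.8 ± 2.31 CPM, and Lama2, a laminin chain, 5.52 ± 0.835 and 7.09 ± 0.753 CPM.

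Skeletal muscle markers had the highest median fold changes of the lists described and none passed the test. Acta1, skeletal actin, stood at 3.82, 11.2, 400 and 184 CPM in CR and at 269, 392, 1832 and 510 CPM in CREX. CR replicate 3 lay above 2 of the CREX libraries, and the log2 difference of 2.33 ± 1.49 (SE) had an unadjusted p of 0.168 in edgeR. Ckm, muscle creatine kinase, was at 2.82, 9.37, 186 and 99.4 CPM in CR and at 152, 169, 806 and 291 CPM in CREX. The 16 markers of all fibres had a median log2 difference of 2.32, the 10 of fast fibres 2.16 and the 9 measured of slow fibres 2.71, with 0 of each below an unadjusted p of 0.05. No marker of all fibres or fast fibres was at 0 in any library, whereas Myl2 and Tnni1 were at 0 in CR replicate 1 and Myh7 in CR replicate 2. Summed markers of all fibres took 0.00535% to 0.12% of the counts in CR and 0.0844% to 0.547% in CREX. Among freely fed mice the muscle score, the mean log2(CPM + 1) of the 16 markers, was 0.706 to 4.57 in control and 0.789 to 7.23 in EX, against 1.13 to 5.58 in CR.

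**Figure D5:**
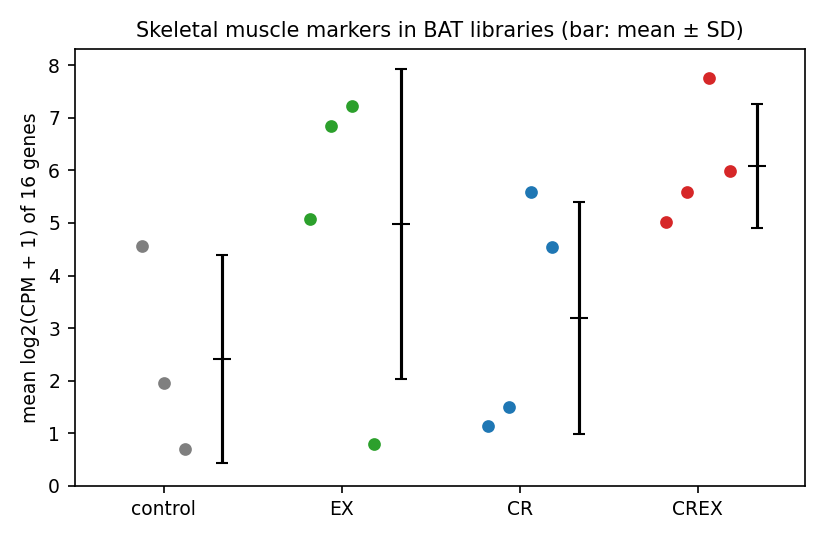
Mean log2(CPM + 1) of 16 skeletal muscle markers (y axis, from 0) in each BAT library by group (x axis); points are libraries and bars the mean ± SD. The 4 CREX libraries lie at 5.01 to 7.75, whereas each of the other groups holds at least 1 library below 2.

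Markers of the other cell types in the tissue did not pass the adjusted test. Endothelial cells had 0 of 12 markers at an unadjusted p below 0.05 and a median of −0.05, smooth muscle and pericytes 0 of 10 and −0.02, fibroblasts and preadipocytes 0 of 10 and 0.12, and erythroid cells 0 of 6 and −0.20. Of 10 mesothelial markers 1 was measured at a testable level. Schwann cell and neuron markers had 1 lower of 7 (14.3%). Of all genes tested, 3.72% were higher and 3.91% lower at the unadjusted threshold.

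Whether training acted differently in restricted and freely fed mice was tested as an interaction in BAT, the CREX minus CR difference less the EX minus control difference, over 13922 genes. No gene passed an adjusted p of 0.05 in edgeR, where the smallest was 0.179, while 800 genes (5.75%) had an unadjusted p below 0.05, and DESeq2 called 5. Training in freely fed mice gave 0 DEGs of 13407 genes in edgeR, with 443 higher (3.3%) and 529 lower (3.95%) at an unadjusted p below 0.05. The paper reports a few DEGs for this contrast with DESeq2, whose count is not given here. Psat1 differed between the settings by 0.98 on the log2 scale, with a training difference of 1.16 under restriction and 0.18 with free feeding, and an adjusted p of 0.513 in edgeR. Ffar2 had a log2 difference of 1.84 under restriction and −0.90 with free feeding, with an adjusted p of 0.513 for the interaction in edgeR. Hcar2 had 1.15 and 0.12 and Trf 1.06 and −0.03, with adjusted p values of 0.793 and 0.824 for the interaction in edgeR. The respiratory list had a median of −0.15 under restriction and −0.05 with free feeding, where 0 of its members passed the unadjusted threshold in either direction, and 6 of the 38 had an unadjusted interaction p below 0.05.

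The same training contrast in SkM of restricted mice gave 0 DEGs of 13068 genes in edgeR. Using DESeq2, the paper reports a few DEGs there too. A test of the difference between BAT and SkM called 0 of 14308 genes, with 767 (5.36%) at an unadjusted p below 0.05, a smallest adjusted p of 0.218 in edgeR and 6 calls in DESeq2. Psat1 had a log2 difference of −0.30 in SkM, and the difference between tissues had an adjusted p of 0.748 in edgeR. Serpina3n had 0.03 in SkM against 1.02 in BAT, with an adjusted p of 0.882 for the difference between tissues in edgeR. Without 1 SkM CREX library, replicate 1, the tissue test called 152 genes, so this comparison rested on a single library of 3. The respiratory list had a median of −0.24 in SkM, a lower fitted level in CREX there too.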

How the data were processed

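Expected counts per gene symbol were deposited by the authors for 29 libraries. Per the paper's methods and the submitters' processing notes, reads were trimmed, aligned to mm10 with STAR 2.7.10a and quantified with RSEM, which divides reads shared by similar genes. The notes name RSEM 1.2.28 and DESeq2 1.3.40. The gene annotation and strand setting are not given in the sources used here. Estimated counts were rounded to whole numbers here (6.11% of the deposited values were not whole). Of 24770 symbols, 27 were date-like and 2 duplicated, and none of these was named. Replicates came from separate mice, and no pair of the 8 libraries was identical.

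CREX and CR libraries were compared in edgeR 4.0.16 (R 4.3.3; filterByExpr, TMM, glmQLFit with robust=TRUE, glmQLFTest), with Benjamini-Hochberg adjustment over all genes tested. DESeq2 1.42.0 and limma-voom (limma 3.58.1) were alternatives, and the scripts were tested on simulated data. The interaction used 15 BAT libraries in 1 fit and the tissue difference 14 libraries. Unadjusted p-values are from the same edgeR models. The depth of 21154276 to 24919377 counts sets a floor of 3 counts at 0.12 to 0.142 CPM, which covers counting error only. The score of a list is its mean log2(CPM + 1), with a pseudocount of 1. Transcript lengths were medians over a gene's transcripts in a GENCODE annotation of mm10 and matched 94.5% of genes tested. Promoter windows came from RefSeq on GRCm38.p6.

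The comparison, gene lists and tests were chosen with earlier results of these data known, and lists are therefore described by counts and medians with no test. Genes named were every DEG, up to 8 per direction with the smallest unadjusted p among those with p below 0.05, a fold change above 1.5, at least 1 CPM and separate groups, of which 49 higher and 13 lower genes qualified, up to 4 members with the smallest p and 3 abundant members of each list, up to 5 DESeq2 calls per direction, and the defining genes of BAT and serine synthesis. Net1, Asns, Usmg5, Ndufa6, Lgals3bp, C4b, Ffar2, Hcar1, Ptger3 and members of the full complex, ribosomal, complement, growth hormone and receptor lists were chosen after their values were seen.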

Additional observations from a re-analysis of the deposited data

Results flagged for a closer look

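In 264 checks of 1 library against the other 3 of its group, over 85 named genes and 47 list scores in CR and CREX, 16 had a library far from the others by Dixon's test, and chance alone gives about 1 in 20. CREX replicate 3 stood apart in muscle genes, with Acta1 at 1830 CPM against 269 to 510 CPM in the others, Mb, myoglobin, at 248 CPM against 24.2 to 59.7 CPM and Des, desmin, at 275 CPM against 71.7 to 94.4 CPM. CR replicate 2 stood apart in scores on the log2(CPM + 1) scale, at 9.29 for the respiratory list against 9.19 to 9.20, 7.99 for complex I, 9.38 for complex III with cytochrome c, 2.62 for immediate early genes and 6.67 for antioxidant defence, each above its group. It was the low library for Shmt2, at 10.6 CPM against 13.1 to 13.6 CPM. CR replicate 3 was high for Chac1, at 1.61 CPM, and for the score of glutamine, aspartate, alanine and proline enzymes, at 4.54. CR replicate 1 was low for Xbp1, a factor of the unfolded protein response, at 26.8 CPM against 33.1 to 33.3 CPM.

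Among CREX libraries, replicate 1 was low in the score of the ATF4 and amino acid stress list, at 3.65, and of branched-chain amino acid breakdown, at 6.76. Replicate 2 was low for Slc7a8, at 3.37 CPM against 4.71 to 4.90 CPM, and replicate 4 was high for Gm40812, at 2.05 CPM against 1.84 to 1.86 CPM.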

How the results depend on the processing

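The count of DEGs, 1 (Psat1) in edgeR, depended on the settings. It was 3 with no filter on low counts, 30 with DESeq2 on the same libraries, 18 with DESeq2 on all BAT libraries, 0 with robust=FALSE, 0 with the muscle score as a covariate and 259 by unadjusted p with the fold minimum. It was 1 with RLE size factors, a minimum of 10 counts in every library, limma-voom, 1 edgeR fit on all BAT libraries or no fold minimum. Leaving out 1 library gave 0 to 5: 5 without CREX replicate 2, where Trf, Hcar2 and Net1 also passed, and 0 without any other. In alternatives added after seeing the data it was 0 against CR replicates 3 and 4 only and 1 with muscle markers left out. The interaction, 0 genes, was 1 with no filter, 5 with DESeq2, 1 with the muscle score as a covariate, 0 with RLE size factors and 0 to 0 without single libraries. The tissue difference, 0 genes, was 1 with no filter, 6 with DESeq2, 0 with RLE size factors and 0 to 152 without single libraries: 152 without SkM CREX replicate 1, 1 without SkM CR replicate 1. The causes were not tested. Acta1 reversed to −0.10 on the log2 scale with the muscle score as a covariate. Of the other values of named genes over all settings, 1638 kept direction and side of the threshold, 44 gained the call and 10, all of Psat1, lost it. Of list medians, 889 stayed within the spread between replicates and 28 moved further.

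With the replicate number as a block, the count was 51 (50 higher, 1 lower), of which 6 were also among the 30 of DESeq2, the interaction count was 0 and the tissue count 10. Deviations of same-numbered CR and CREX libraries correlated at 0.361, −0.136, 0.264 and −0.067, and 2 of 4 CR libraries correlated best with their own number, so the numbers were not read as pairs.

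Genes near the floor of 0.12 to 0.142 CPM, such as Ffar2 in CR, rest on few counts.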

Other observations

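Targets of growth hormone and STAT5, listed after values were seen, differed between the CREX libraries themselves. Cish, an inhibitor that cytokine and growth hormone signalling induces, stood at 13.1, 15.6, 6.92 and 19.3 CPM in CR and at 65.6, 8.96, 57.5 and 15.5 CPM in CREX. CREX replicates 1 and 3 were far above all others, while replicates 2 and 4 lay in the CR range. Socs2, of the same family, was at 4.99, 5.87, 7.83 and 5.59 CPM in CR and at 17.7, 7.67, 23.7 and 8.88 CPM in CREX, with the same pair of libraries high. Pik3r1, a regulatory subunit of phosphoinositide 3-kinase, was at 47.8 to 65.4 CPM in CR and 63.8 to 137 CPM in CREX. Of 14 members 4 were higher and 0 lower at an unadjusted p below 0.05, against 3.72% and 3.91% of all genes, with a median log2 difference of 0.17. None were higher with the muscle score as a covariate, against CR replicates 3 and 4 alone 1 was, and none passed edgeR's adjusted threshold. Net1, a guanine nucleotide exchange factor, was at 24.1, 23.6, 35.1 and 26.8 CPM in CR and at 91.4, 37.8, 93.2 and 67.2 CPM in CREX, without overlap and with adjusted p values of 0.386 in edgeR and 0.00565 in DESeq2.

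Clock genes had 3 of 18 lower at an unadjusted p below 0.05 and 0 higher, against 3.91% and 3.72% of all genes, with a median of −0.12. None passed with the muscle score as a covariate, and against CR replicates 3 and 4 alone 1 was lower. Bhlhe41 was at 7.87 to 10.1 CPM in CR and 4.87 to 8.16 CPM in CREX, and Per1 at 38.5 to 48.2 and 26.4 to 40.4 CPM. With free feeding 8 clock genes were higher and 3 lower in EX at an unadjusted p below 0.05, and 9 of the 18 had an unadjusted interaction p below 0.05, against 5.75% of genes, with none passing adjustment (smallest adjusted p of 0.725 in edgeR). The time of day of each dissection was not given in the labels. Immediate early genes had 3 of 17 lower, against 3.91% of all genes, and a median of −0.27, which was −0.05 with 1 lower against CR replicates 3 and 4 alone. Their median was −0.92 in EX against control. There the summed levels varied widely and overlapped, at 214 to 969 CPM in control and 129 to 327 CPM in EX. Klf2 averaged 26.5 ± 1.52 CPM in CR and 21.7 ± 3.10 CPM in CREX, and Junb 5.94 ± 0.386 and 4.94 ± 0.429 CPM. Among heat shock and unfolded protein response genes 1 of 24 was higher and 3 lower. Xbp1 was the higher one, at 26.8, 33.3, 33.1 and 33.1 CPM in CR and 57.2, 36.2, 49.0 and 47.8 CPM in CREX, without overlap and with an adjusted p of 0.356 in edgeR and 0.0116 in DESeq2.

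Of other lists, antioxidant defence had 0 higher and 2 lower of 22, sympathetic and adrenergic genes 0 and 1 of 13, glucocorticoid response 0 and 1 of 18, and none passed in either direction for angiogenesis and hypoxia (17 genes), antigen presentation (15), interferon-stimulated genes (15) or cell proliferation (6), all at an unadjusted p below 0.05. Over all genes tested the shares were 3.72% higher and 3.91% lower.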
